A study of Mus musculus with 6 samples.

Results

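The BH3-only genes encode the part of the Bcl-2 family that carries, of its conserved domains, the BH3 domain alone, and the expression of 10 of them was examined in the retinal ganglion cell layer after optic nerve crush. The members were Bcl2l11 (Bim), Bbc3 (Puma), Pmaip1 (Noxa), Hrk (harakiri), Bid, Bad, Bik, Bmf, Bnip3 and Bnip3l (Nix), and they were found by the gene symbol that the platform annotation gives to each probe set. The array holds 21 probe sets for 9 of the 10 genes, out of 18193 genes with a probe set of a single symbol. The remaining gene, Bnip3l, is represented by 3 probe sets that carry a second symbol, that of a Bnip3l pseudogene, so no level of Bnip3l is given. There were 6 arrays from male C57BL/6J mice, with no genetic change in either group. The 3 crush arrays are from eyes taken 6 hrs after the optic nerve was crushed with forceps for 10 sec, and the 3 control arrays are from uninjured contralateral eyes of the same animals. The age of the mice is not given in the sources used here. About 6000 cells of the ganglion cell layer were captured by laser in every eye, and the approximately 60 ng of RNA obtained was amplified before hybridization. Each crushed eye was compared with the control eye of the same number, which was assumed to be from the same animal, and these are called pairs 1, 2 and 3.

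BH3-only proteins sense damage or the loss of trophic support and trigger the mitochondrial pathway of apoptosis. They bind the groove of survival proteins such as Bcl-2, Bcl-xL and Mcl-1 or act directly on Bax and Bak, which then permeabilize the outer mitochondrial membrane. Bcl2l11, Bbc3, Hrk and Pmaip1 are regulated largely through their transcription, while Bad and Bid are regulated largely after translation, by phosphorylation and by cleavage. Bnip3 and Bnip3l are atypical members that sit in the mitochondrial membrane, respond to hypoxia and act mainly as receptors for mitophagy. In axotomized retinal ganglion cells (RGCs) this family is of interest because death of these neurons depends on Bax.

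The sequence before the annotated start is shown for genes whose transcription is known to respond to FOXO factors or to hypoxia, and for Bmf, whose tested probe sets were both higher on average. Sequences are from RefSeq on GRCm38.p6, each written 5′ to 3′ on the strand of the gene, and capitals mark motif letters found on either strand. The windows end at the base before the start and lie at chr2:128125788-128126037 (plus strand) for Bcl2l11, chr7:138909507-138909756 (minus strand) for Bnip3 and chr2:118549687-118549936 (minus strand) for Bmf. For Bbc3 the stretch lies inside the annotated gene, at chr7:16310082-16310111 (plus strand), before one of its annotated starts.
Bcl2l11: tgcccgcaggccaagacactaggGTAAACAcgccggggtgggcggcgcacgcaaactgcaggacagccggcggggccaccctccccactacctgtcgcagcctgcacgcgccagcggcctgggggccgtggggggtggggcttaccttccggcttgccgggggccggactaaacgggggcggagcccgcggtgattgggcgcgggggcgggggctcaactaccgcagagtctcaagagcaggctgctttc
Bbc3: gtctggcgggttTGTTTACaaacaatgggg
Bnip3: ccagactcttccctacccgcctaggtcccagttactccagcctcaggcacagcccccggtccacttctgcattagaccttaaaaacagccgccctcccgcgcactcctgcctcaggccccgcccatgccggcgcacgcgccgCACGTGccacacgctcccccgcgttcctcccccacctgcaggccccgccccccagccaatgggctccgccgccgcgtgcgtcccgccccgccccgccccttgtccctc
Bmf: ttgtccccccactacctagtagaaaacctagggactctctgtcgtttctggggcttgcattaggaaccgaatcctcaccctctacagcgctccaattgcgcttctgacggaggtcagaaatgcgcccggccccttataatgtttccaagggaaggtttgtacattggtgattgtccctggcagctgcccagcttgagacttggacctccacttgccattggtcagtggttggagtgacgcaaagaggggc
The capitals in Bcl2l11 and Bbc3 are the FOXO core TGTTTAC, which in Bcl2l11 lies on the opposite strand. It was found in 2 of the 13 windows of 250 bases that 7 of the members have, and in 3.17% of all 32851 windows. In Bnip3 the capitals hold the hypoxia response core ACGTG on both strands, a core found in 2 of the 13 windows and in 16.6% of all. The other of these windows belongs to a Bbc3 start and holds the same letters. The AP-1 site TGANTCA had no match in the 13 windows against 6.75% of all, and the p53 half-site matched 1 window, of an inner Bmf start, against 7.13%. In the Bmf sequence shown none of these motifs was found. The matches are letters in a window and say nothing about binding.

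Of the 21 probe sets, 14 had a mean intensity of at least 40 over the 6 arrays and were tested, and they cover Bcl2l11, Bbc3, Hrk, Bid, Bad, Bmf and Bnip3. Intensities are linear and in arbitrary units, and those of the members are compared only within a probe set, since levels of different probe sets are not comparable. For marker lists, sums over the same probe sets are compared between arrays, and the brightest probe sets weigh most in them. Differences are given on the log2 scale with intensities under 16 set to 16, and nominally significant means an unadjusted p under 0.05 from limma with the pair as a block. Of the 14 tested probe sets 2 were nominally higher (Bbc3 and 1 of Bmf) and 1 was nominally lower (1 of Bid), which is 14.3% and 7.14%, where 5.16% and 2.51% of all 33169 tested probe sets were. In either direction 3 of 14 met this threshold against 7.68% of all. After adjustment none did (0% of all probe sets, with a lowest adjusted p of 0.642 from limma). The study's own criteria also require that the means differ by over 80 in intensity and by a ratio over 1.2, and 0 of the 14 met them with limma's unadjusted p, against 3.12% of all. The median log2 fold change over the 7 genes, each by its brightest probe set, was -0.07, with 3 genes above 0 and 4 below, while that of all 15103 genes was -0.02. The pair medians of the 7 genes were 0.012, 0.054 and -0.079, and no common direction was seen in the pairs.

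Median intensity was 131.2 on the array of crush eye 2, 153.9 on that of crush eye 3 and 141 to 142.6 on the others. Crush eye 2 had 1331 probe sets more than 1 log2 unit below all other arrays, against 4 to 57 elsewhere, and crush eye 3 had 255 more than 1 above, against 2 to 27. A probe set of Hrk and one of Bcl2l11 are among those low on crush eye 2. Of 12 RGC markers 11 were measured, Rbpms and Slc17a6 among them, and so were 7 of 9 rod markers and 9 of 9 Muller cell markers. Fewer cells of a type and less RNA per cell cannot be told apart in such samples. Over the 3 pairs the markers of Muller cells, microglia and endothelium had median log2 fold changes of -0.09, 0.08 and -0.11. By pair the medians were -0.265, -0.099 and -0.069 for Muller cells and 0.012, 0.479 and -0.185 for microglia. For endothelium they were -0.13, 0.064 and 0.119. The Muller cell marker Aqp4 (-0.37) and the microglia marker Tmem119 (-0.37) had an unadjusted p under 0.05 from limma. The summed intensity of the RGC markers was 61694 to 64586 in control eyes and 55149 to 69122 after crush.

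**Figure D1:**
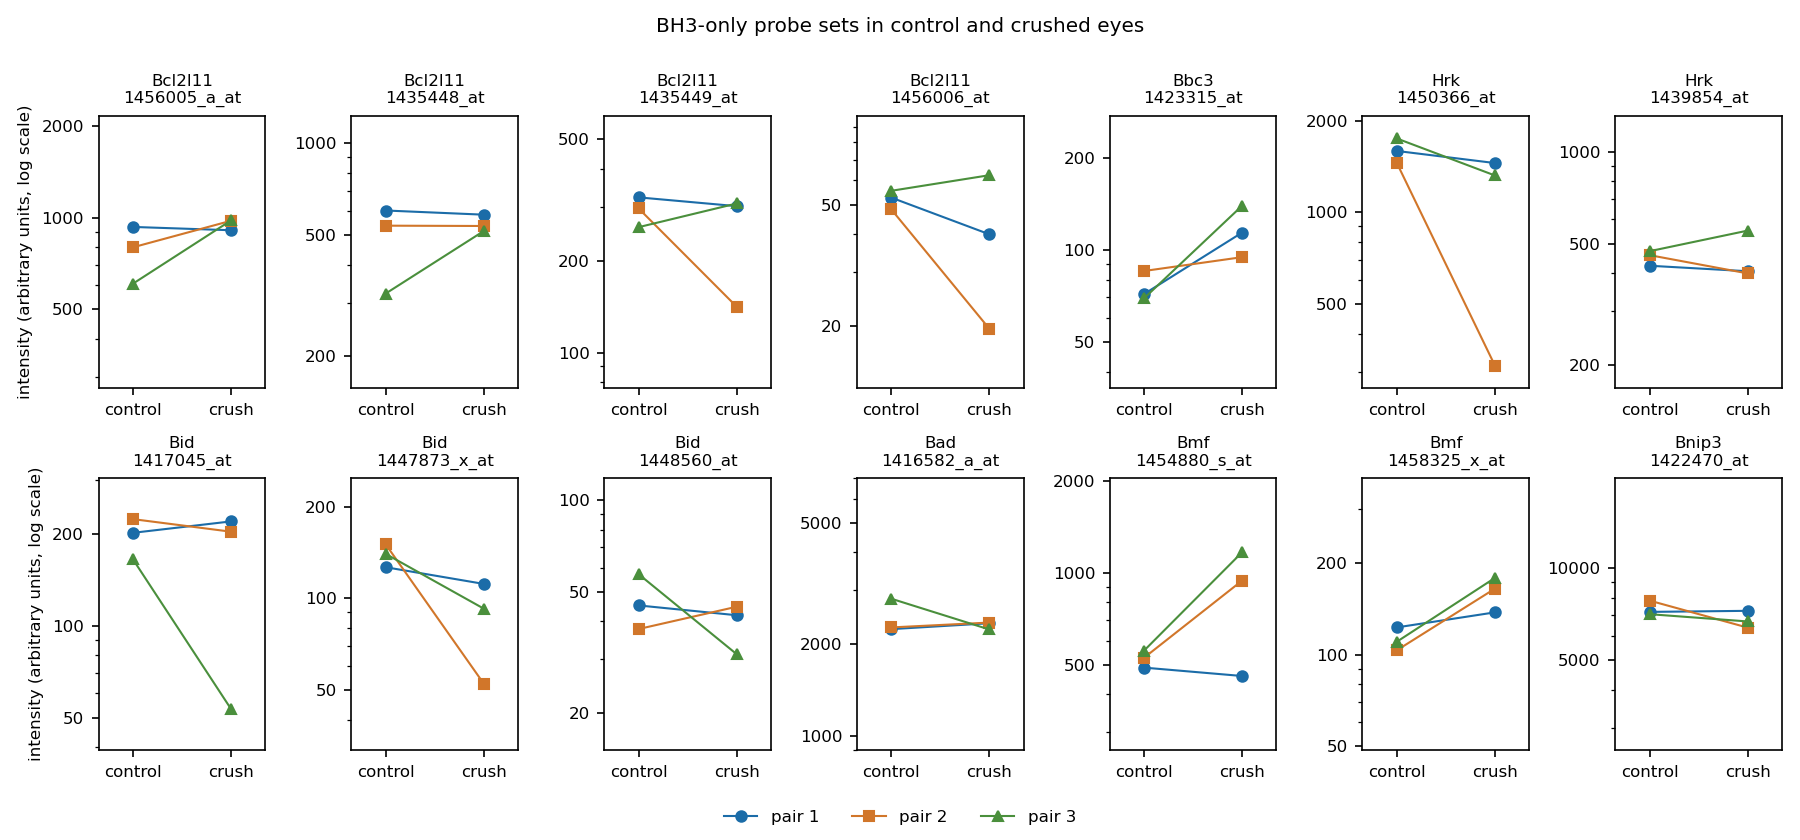
Array intensity (arbitrary units, log scale, each panel spanning the same ratio) of the 14 tested BH3-only probe sets in control eyes and eyes 6 hrs after crush, with lines joining the eyes of a pair. Bbc3 is higher in each pair, both Bmf probe sets are higher in pairs 2 and 3, and the low values of Hrk 1450366_at (315) and Bid 1417045_at (53.3) are each from 1 crushed eye.

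Bbc3, whose product binds all survival members of the Bcl-2 family, was the only member whose brightest probe set was nominally significant. Its single probe set read 71.8, 85.5 and 69.6 in control eyes 1 to 3 and 114, 94.9 and 140 in crush eyes 1 to 3. The groups did not overlap, with the highest control below the lowest crushed eye, and this held for 7.29% of all tested probe sets in this direction and for 2 of the 14 members. Mean intensity was 75.6 ± 8.62 in the 3 control eyes and 116 ± 22.6 in the 3 crushed eyes (SD). The log2 fold change was 0.61, with a 95% interval of 0.10 to 1.13 and an adjusted p of 0.642 by limma. By pair the differences were 0.67, 0.151 and 1.01, so the smallest came from crush eye 2 and the largest from crush eye 3, both of whose arrays stood apart. Without pair 2 the log2 fold change was 0.84 and still nominally significant, but without pair 1 (0.58) or pair 3 (0.41) it was not. The means differed by less than the 80 units that the study's criteria require.

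Bmf, a BH3-only protein held at the actin cytoskeleton until stress or detachment releases it, was higher on both of its tested probe sets, in pairs 2 and 3. The brighter one, 1454880_s_at, read 489, 527 and 556 in control eyes and 459, 944 and 1169 in crush eyes 1 to 3. In crush eye 1 it was thus below every control eye, while the other crushed eyes were well above. The log2 fold change was 0.61 (95% interval -0.04 to 1.26, adjusted p = 0.642 from limma) and not nominally significant, with pair differences of -0.091, 0.841 and 1.07. The dimmer 1458325_x_at read 123, 103 and 110 in control eyes and 138, 165 and 179 after crush, and its groups did not overlap. Its log2 fold change was 0.51 (95% interval 0.08 to 0.94, adjusted p = 0.642 from limma), with 0.164, 0.671 and 0.695 in the pairs. It was nominally significant, but not without pair 2 (0.43) or pair 3 (0.42). The suffixes mean that the probes of the first match several transcripts and that some probes of the second may bind other sequences, so the specificity of either is not assured. The brighter probe set became nominally significant without pair 1, at 0.96. The remaining probe set, 1422995_at, was dim, with 13.4 to 18.6 over the 6 arrays, and was not tested.

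Some markers of astrocytes, rods and pigment epithelium also differed in some of these pairs. Of 5 astrocyte markers 4 were measured, with pair medians of 0.276, 0.233 and 0.312. Their summed intensities were 13037 to 13750 in control eyes and 12231 to 15073 after crush. Gfap had 379, 326 and 503 in control eyes against 730, 607 and 821. Pdgfra was also nominally higher (0.40) and S100b had 0.15. Aldoc, with the largest intensities in these sums, was lower on average (-0.10), with -0.37 in pair 2. Of 9 rod markers 7 were measured, with pair medians of -0.223, 0.173 and 0.751 and sums of 29065 to 52150 and 39767 to 46771. Gfap was higher in every crushed eye than in any control eye, and the rod medians were lowest in pair 1 and highest in pair 3, as were the differences of the brighter Bmf probe set. Of 6 pigment epithelium markers 5 were measured, with a median log2 fold change of -0.01 and sums of 8297 to 8558 in control eyes and 8997 to 14735 after crush, which did not overlap. Among them 2 were nominally higher, Ttr with pair differences of 2.2, 1.81 and 2.96 and Lrat with 0.423, 0.492 and 0.864. The separation of the sums came from Ttr, which read 508, 493 and 948 in control eyes and 2332, 1733 and 7355 after crush. The other 3 were lower on average, Best1 at -0.01, Tyrp1 at -0.40 and Rlbp1, also a listed Muller cell marker, at -0.09. Rpe65 was too dim to be tested. The differences of Ttr, like those of Bbc3, were smallest in pair 2 and largest in pair 3. The part of these markers in the values of Bbc3 and Bmf was not tested.

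Bcl2l11, the activator BH3-only protein Bim, was tested on 4 probe sets that did not move together. The brightest, 1456005_a_at, read 932, 799 and 607 in control eyes and 909, 976 and 979 after crush. Crush eye 1 lay within the range of the control eyes, and the low control value of pair 3 made that pair's difference the largest, 0.689. Rod markers had the same order in control eyes, with 10390, 7945 and 5312 for Gnat1, and their pair medians of -0.223, 0.173 and 0.751 were likewise lowest in pair 1 and highest in pair 3. Their part in the Bcl2l11 values was not tested. The log2 fold change was 0.31 (95% interval -0.16 to 0.78, adjusted p = 0.671 from limma). A second probe set, 1435448_at, had 0.21, again almost wholly from pair 3 (0.681) with a control value of 322 against 602 and 537 in the other control eyes. The dimmer 1435449_at and 1456006_at had -0.30 and -0.51, with the lowest values on crush eye 2, at 141 and 19.6, and differences of 0.258 and 0.17 in pair 3. All 4 were thus higher in pair 3 and lower in pair 1, and none was nominally significant, although 1456006_at was without pair 3 (-0.85). With the 4 averaged the log2 fold change of the gene was -0.07, so its direction depends on the probe set. The untested 1426334_a_at was under 16 on 5 of the 6 arrays.

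Hrk, a BH3-only gene of neurons that is induced when trophic factors are withdrawn, had its lowest value in a single eye. On 1450366_at it read 1591, 1453 and 1748 in control eyes and 1452, 315 and 1322 after crush. Each crushed eye was below every control eye, although crush eye 1 was nearly level with control eye 2, and 5.25% of all tested probe sets and 2 of the 14 members were apart in this direction. The log2 fold change was -0.91 (95% interval -1.99 to 0.16, adjusted p = 0.642 from limma), and without pair 2, whose crushed eye stood apart, it was -0.27. It was not nominally significant, but became so without pair 1 (-1.305) and with an intensity trend and robust prior. The other probe set, 1439854_at, read 423, 458 and 472 in control eyes and 406, 399 and 551 after crush, a log2 fold change of -0.01 (95% interval -0.40 to 0.38, adjusted p = 0.987 from limma). In pair 2 the difference was -2.21 on the first probe set and -0.199 on the second. Marker medians of some types of neuron were also lower in pair 2. They were -0.244 for 11 of 12 RGC markers, -0.426 for 9 of 9 amacrine markers and -0.413 for 6 of 8 bipolar markers. The median of all genes was -0.101 in that pair, and that of the rod markers was 0.173. Among the RGC markers Rbpms (0.067) and Tubb3 (0.691) were higher there. The bipolar medians were below 0 in pairs 1 and 3 too, at -0.221 and -0.108, and 2 of these markers were nominally lower. The amacrine sums were 38583 to 44325 in control eyes and 34659 to 39493 after crush, and the bipolar sums 13792 to 16215 and 11177 to 12933. Lens markers, 4 of 5 measured, had a median of -2.44 in pair 2, with sums of 1226 to 7647 and 701 to 5844. Their part in the Hrk value was not tested.

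Bid, which caspase 8 cleaves to link death receptors to the mitochondria, was below 0 on average on its 3 probe sets, but in different eyes. On 1417045_at it read 202, 224 and 165 in control eyes and 220, 204 and 53.3 after crush, so that its log2 fold change of -0.55 (95% interval -1.47 to 0.37, adjusted p = 0.691 from limma) came from pair 3 and was -0.01 without it. On 1447873_x_at it read 127, 150 and 140 in control eyes and 112, 52.5 and 92.6 after crush, with no overlap between the groups. Its log2 fold change was -0.77 (95% interval -1.47 to -0.06, adjusted p = 0.642 by limma), the only nominally lower one among the 14. Without pair 2 it had -0.39, and without pair 3 -0.85, neither nominally significant. The difference was greatest in pair 2, whose crushed eye's array stood apart. This probe set has the suffix of the dimmer Bmf probe set, so its specificity is likewise not assured. The dim 1448560_at had -0.25, lower in pairs 1 and 3 and higher in pair 2 (-0.107, -0.872 and 0.243).

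Bad, which 14-3-3 proteins hold inactive after phosphorylation by survival kinases, had a small difference. Its bright probe set, 1416582_a_at, read 2238, 2267 and 2816 in control eyes and 2340, 2352 and 2232 after crush, with crushed eyes within or close to the range of the controls. The log2 fold change was -0.07 (standard error 0.16, adjusted p = 0.906 from limma), and its 95% interval corresponds to folds from 0.724 to 1.25. The other probe set, 1416583_at, was under 16 on all arrays.

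Bnip3, a mitophagy receptor induced by hypoxia, read 7190, 7830 and 7067 in control eyes and 7248, 6385 and 6689 after crush. The groups overlapped, and the log2 fold change was -0.12 (standard error 0.14, adjusted p = 0.816 from limma), with a 95% interval of folds from 0.714 to 1.18.

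Pmaip1, a p53 target that neutralizes Mcl-1, and Bik, a BH3-only protein of the endoplasmic reticulum, were at the dim end of the array and were not tested. Pmaip1 read 21.1, 36.3 and 7.7 in control eyes and 20.6, 35.8 and 4.56 after crush, nearly the same in both eyes of pairs 1 and 2. The brightest of 3 Bik probe sets read 1.28, 14.4 and 12.4 in control eyes and 8.25, 26.5 and 3.24 after crush, and the other 2 were under 16 on every array. Dim probe sets do not show that a gene is silent.

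**Figure D2:**
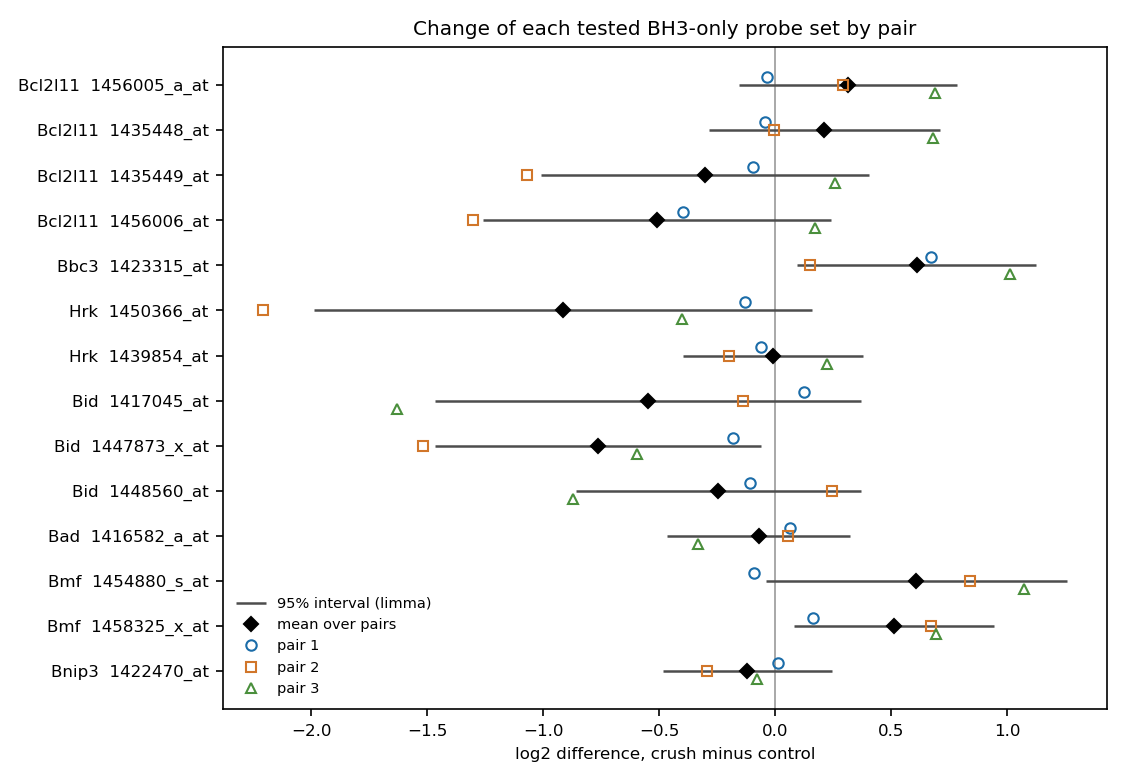
Log2 difference (crush minus control) of the 14 tested BH3-only probe sets, with open symbols for pairs 1 to 3, diamonds for the mean over pairs and lines for the 95% interval from limma. The intervals of Bbc3, of Bmf 1458325_x_at and of Bid 1447873_x_at exclude 0, and the pairs of Hrk 1450366_at and Bid 1417045_at are spread the widest.

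The share of members with the same direction in all pairs was close to that of the array. Of the 14 probe sets 2 were higher in all 3 pairs (Bbc3 and Bmf 1458325_x_at), against 17.6% of all tested probe sets, and 2 were lower in all 3 (Hrk 1450366_at and Bid 1447873_x_at), against 14.2%. The 14 probe sets had a median difference of -0.052 in pair 1, -0.071 in pair 2 and 0.197 in pair 3, while all probe sets had 0.018, -0.082 and 0.07. Among genes with several tested probe sets, those of Bcl2l11 differed in direction on average, and those of Bid differed in which crushed eye was lowest.

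Genes whose level followed a member most closely over the 6 arrays were taken from 15102 others. For Bbc3 these were C230035I16Rik and Serac1 with a Pearson correlation of 0.989 and Mafg, a small Maf factor, with 0.988. For Bcl2l11 they were Dtd2 (0.997), Ypel2 (0.994) and Jchain (0.994). Each gene was taken by its brightest probe set, for Bcl2l11 1456005_a_at, whose pattern its other probe sets did not all share. These values describe 6 arrays only, the same ones for all genes.

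The multidomain proteins that BH3-only proteins bind were represented by 7 of 11 listed genes, of which 1 was nominally higher and 0 lower. Bak1, which with Bax forms the pore of the outer mitochondrial membrane, read 113, 71.4 and 113 in control eyes and 166, 205 and 154 after crush. Its groups did not overlap, which held for 5.69% of all 15103 genes in this direction. Its log2 fold change was 0.84 (adjusted p = 0.642 by limma), with 0.564, 1.52 and 0.445 in the pairs. Without pair 2, whose crushed eye's array stood apart, it was 0.50. It was nominally significant without each pair in turn. It was not with a floor of 64, with no intensity filter or with the methods' t-test. The survival genes Bcl2l1 and Mcl1 had log2 fold changes of -0.01 and -0.10 and Bcl2 had 0.16, none nominally significant, and they were chosen for mention once their values were known. Bcl2l10, with the smallest p of this list after Bak1, had 0.41 and was not nominally significant. Bax was not analysed here, since no probe set carries its symbol alone. Downstream of these proteins, 0 of 7 measured genes of the apoptosome and mitochondrial release were nominally significant, and the smallest p values were those of Apaf1 at -0.37, Vdac2 at -0.16 and Xiap at 0.11.

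Among 16 measured transcription factors and kinases that act upstream of BH3-only genes, 1 was nominally higher and 1 lower. Cebpb, a factor of stress and cytokine responses, read 565, 560.2 and 709 in control eyes and 706, 935 and 956 after crush. The groups overlapped slightly, and the log2 fold change was 0.50 (adjusted p = 0.642 by limma), although not nominally significant without any one of the 3 pairs, and -0.21 on a dim probe set. Mybl2, a factor of the cell cycle, averaged 97.7 ± 5.06 in controls and 67.9 ± 7.36 in crushed eyes (SD over 3), which gave -0.53 on the log2 scale. It was lower in all 3 pairs but not nominally significant without pair 1. Jun, the AP-1 factor through which the JNK pathway induces Bcl2l11 and Hrk, had 0.49 with 0.81, -0.26 and 0.906 in the pairs, and Foxo3 had -0.003 and Ddit3 -0.15, none of them nominally significant. They too were chosen with their values known.

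Lists of other p53, hypoxia and stress targets, of mitophagy genes and of genes that restrain BH3-only proteins gave few calls. Of 16 other p53 targets 0 were nominally significant, with a median of -0.05 and the smallest p values for Fas (0.26), Aen (-0.36) and Gadd45a (0.27). Of 13 measured hypoxia-inducible targets 0 were, with a median of -0.015 and Ankrd37 (-0.33), Mxi1 (-0.27) and Egln1 (-0.21) at the top of the ranking. Of 9 endoplasmic reticulum stress targets 1 was nominally higher, the pseudokinase Trib3, with 737 ± 167 in controls and 1069 ± 126 in crushed eyes (SD over 3), or 0.55 on the log2 scale. Without pair 3 this was 0.35 and without pair 2 it was 0.57, neither nominally significant, nor was it with a floor of 64, and a dim probe set had -0.29. Of 8 measured mitophagy genes 1 was nominally higher, Fkbp8, a mitochondrial anchor of Bcl-2, at 0.46, although not without pair 1 (0.50) or pair 2 (0.28). Of 10 genes for 14-3-3 proteins, dynein light chains and kinases that restrain BH3-only proteins 0 were nominally significant, and Akt1 (-0.17), Ywhae (-0.10) and Ywhah (-0.10) ranked first. Over all 15103 genes, each by its brightest probe set, 2.76% were nominally higher and 2.27% lower, and the medians of these 8 lists lay between -0.09 and 0.06.

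**Figure D3:**
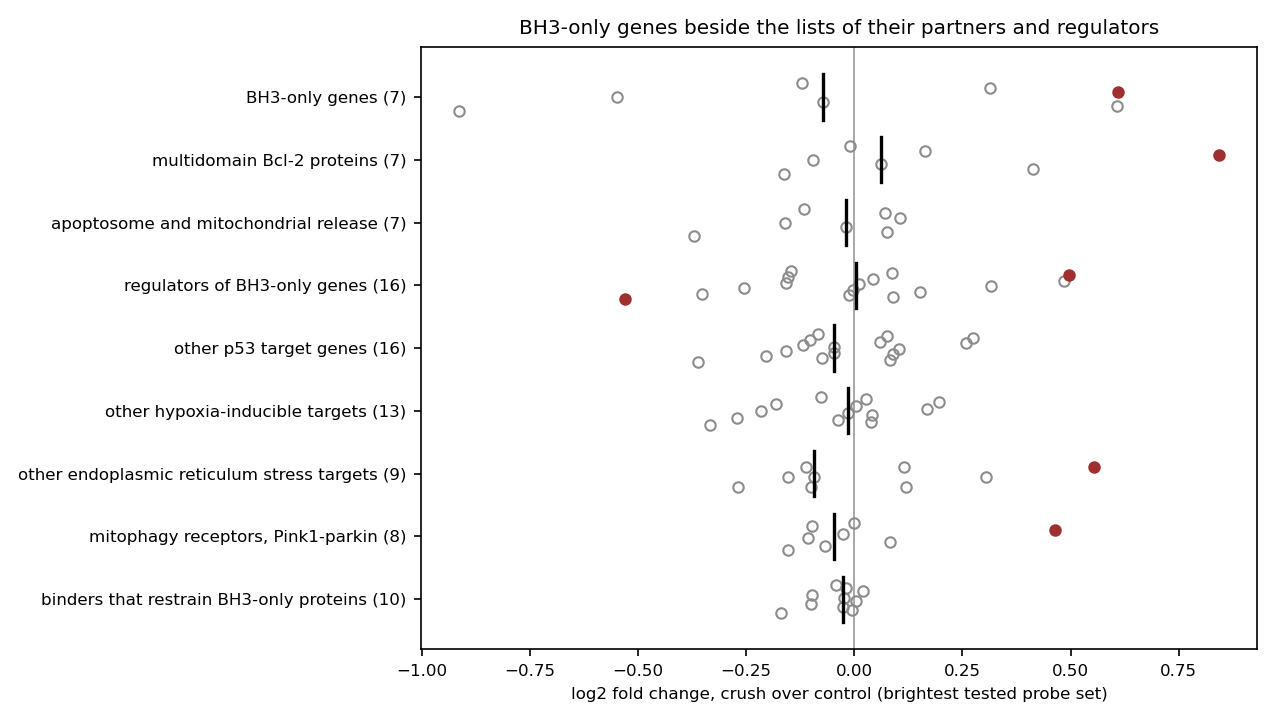
Log2 fold change (crush over control, brightest tested probe set) of the BH3-only genes and of 8 lists of related genes, with the number of measured genes in parentheses. Each circle is a gene, filled where the unadjusted p from limma was under 0.05, and vertical lines are medians. Filled circles are 1 in the BH3-only genes (Bbc3), 1 to 2 in 4 other lists and 0 in the rest.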

How the data were processed

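The deposited intensities are linear array values that the authors made in dChip 2006 from Affymetrix mouse arrays, with an invariant-set normalization and the PM/MM model. The file covers 45101 probe sets, of which 64 control probe sets were left out. A floor of 16 was applied before log2, and the 33169 probe sets whose mean over all arrays reached 40 were tested with limma 3.58.1 in R 4.3.3, with the eye number as a block and Benjamini-Hochberg adjustment over all of them. Arrays have no read depth, and with 3 arrays per group their number limits the precision. From 6876 to 7219 values per array lay under the floor, and a log2 fold change understates differences there. P values rest on the spread of the differences between the eyes of a pair. Limma moderates this spread with that of all tested probe sets, so p also depends on the filter and floor. Deviations from the group mean correlated by 0.154, 0.125 and 0.297 between eyes of the same number and by -0.264 to 0.131 between eyes of different numbers. For control eye 2 the correlation was 0.131 with crush eye 1 and 0.125 with crush eye 2. The controls are contralateral eyes, and the numbers were taken to pair the eyes, which is an assumption. Probe sets were named from the platform annotation where it gives a single symbol, and a gene is represented by its brightest tested probe set. Named genes are all members, the genes of each pathway list that were nominally significant or otherwise the 3 with the smallest p, and the 3 most correlated with Bbc3 and with Bcl2l11. Outside this rule Bcl2, Bcl2l1, Bcl2l10, Mcl1, Jun, Foxo3, Ddit3 and some cell type markers were named with their values known. The members and lists were chosen with earlier results of these data known. The calculation was tested on simulated data. Alternatives covered the block, floor, filter, scaling, prior, test, probe sets and pairs. Marker lists of 10 cell types were measured beside the members.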

Additional observations from a re-analysis of the deposited data

How the results depend on the processing

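Without the pairing (no replicate block) the same 3 BH3-only probe sets were nominally significant, 2 higher and 1 lower. The number of nominally higher members (2) was 1 with a floor of 64 and 1 with a minimum mean of 100, where Bbc3 was not tested. It was 0 with no intensity filter or with the methods' t-test, and 3 with an intensity trend and robust prior. When 1 pair was left out it was 0 to 2. Bbc3 was not nominally significant with a floor of 64, with no intensity filter or with the methods' t-test. The number of nominally lower members (1) was 0 with a floor of 64, with no intensity filter and with the methods' t-test. It was 2 with the trend and robust prior and 0 to 2 when 1 pair was left out. In either direction 1 of 14 members was called with a floor of 64 and 0 of 21 with no filter. With a minimum mean of 100 it was 2 of 11, with the t-test 0 of 14 and with the trend prior 5 of 14. Over all tested probe sets these shares were 7.9%, 7.78%, 7.58%, 5.04% and 7.54%, against 7.68% in the main setting. Leaving out pairs 1, 2 and 3 in turn gave 4, 1 and 1 of 14 members. The array shares were then 8.18%, 5.4% and 4.62%. The study's criteria, met by 0 members, were met by 2 with the trend and robust prior and by 0 to 2 when 1 pair was left out. Over the array 1036 probe sets met them in the main setting, 1517 with that prior and 1340 without pair 1. The median over the BH3-only genes (-0.072) was -0.141 to 0.059 when 1 pair was left out. Bcl2l11 reversed to -0.072 with the mean of its probe sets, and Bad reversed to 0.059 without pair 3. With the mean of a gene's probe sets Bmf (0.56) and Bid (-0.52) were nominally significant. Over the whole array, 2546 nominal calls became 1671 with the methods' t-test and 1525 without pair 3, and 1036 calls by the study's criteria became 321 with that test, 612 without pair 2 and 505 without pair 3. After adjustment 0 probe sets were called under each of these settings except the trend and robust prior, with 1 and no member. Of the related genes, Bak1, Trib3 and Fkbp8 were not nominally significant with a floor of 64, with no intensity filter or with the methods' t-test, nor was Cebpb with that test. Fkbp8 also lost nominal significance with quantile normalization and with arrays scaled to the same median. The cause was not tested. Dim probe sets, read near the floor, limit what can be said of Pmaip1 and Bik.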
